A study of Mus musculus with 29 samples.

Results

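The 49 interferon-stimulated genes described here were taken from a list of symbols and were all found among the 13982 genes of the deposited table. Values were available for each of them in 14 RNA libraries of kidney, kidney tertiary lymphoid structures (TLS) and lymph node of lupus-prone mice. TLS are organized aggregates of B cells, T cells and other leukocytes that form in chronically inflamed tissue. The list was given by symbol and uses no measured value in its rule, but it was drawn up with earlier results of these data known.

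All mice were (NZBxNZW)F1 animals, a cross that develops autoantibodies and immune complex nephritis with age. Proteinuric mice gave 4 kidney libraries (mice H6, H20, H115 and H117, aged 39, 36, 25 and 32 weeks), 3 TLS libraries (mice H6, H20 and H115) and 3 lymph node libraries (mice H6, H20 and H117). The TLS were cut out by hand at low magnification from proteinuric kidneys, and the kidney libraries were made from further tissue of the same kidneys. Lymph nodes also came from 3 mice that carried anti-dsDNA antibodies (mice D10, D11 and L25, aged 28, 29 and 18 weeks, labelled antibody-positive with the addition <5 weeks) and from 1 young mouse (mouse C45, aged 4 weeks). For the antibody-positive mice, RNA was purified with a column kit (miRNeasy). TRIzol was used for the tissues of proteinuric mice and, per the paper, for lymph nodes of 4-week-old mice. Kit and stage therefore cannot be told apart between antibody-positive and proteinuric mice. The mice of the antibody-positive lymph nodes (18 to 29 weeks) were all younger than those of the proteinuric lymph nodes (32 to 39 weeks). Age and stage cannot be told apart either.

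Type I interferons bind a receptor pair (IFNAR1 and IFNAR2), and the kinases JAK1 and TYK2 then activate transcription factors of the STAT family. STAT2 and IRF9 are part of the complex ISGF3, which binds interferon-stimulated response elements (ISREs) in the promoters of many genes, while type II interferon acts mainly through gamma-activated sequences (GAS). High expression of these genes in blood and tissue, the interferon signature, is a known feature of systemic lupus erythematosus and of lupus nephritis.

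The 49 genes were grouped by role: 3 signalling and transcription factors (Irf7, Irf9, Stat2), 5 RNA and DNA sensors, 5 genes of the oligoadenylate synthetase (OAS) family, 3 of the IFIT family, 2 Mx GTPases, 8 GBP and IRG GTPases, 7 genes of the ubiquitin and ISG15 system, 2 of the PARP family, 6 restriction factors and nucleotide enzymes, and 8 others. Several lie beside each other in the genome, and 9 places held at least 2 of the genes less than 1000000 bases apart. Ifit2, Ifit3 and Ifit1 lie on chromosome 19 between 34550694 and 34650009 (GRCm38). Gbp7, Gbp3 and Gbp2 lie on chromosome 3 between 142530342 and 142638008, Oas2, Oas3 and Oas1a on chromosome 5 between 120730333 and 120907521, and Irgm1, Tgtp1 and Ifi47 on chromosome 11 between 48861968 and 49096974. Ifit3, Oas1a and Tgtp1 have near-identical copies in the mouse genome and Parp9 and Dtx3l overlap, so how their reads were divided is uncertain. Mx2 is annotated as a polymorphic pseudogene.

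Promoter sequences from RefSeq (GRCm38.p6) were found for 37 of the 49 genes. No entry was found for Dhx58, Parp14, Ifi27l2a, Ly6e, Usp18, Oas2, Parp9, Iigp1, Zbp1, Mx2, Rtp4 and Mx1. The core of the ISRE, written GAAANNGAAA on either strand, was present in the 250 bases before the start site in 16 of the 37 (43.2%), against 821 of all 27025 promoters (3.04%). A GAS-like motif, TTCNNNGAA, was present in 9 of the 37 (24.3%) and in 1940 of all promoters (7.18%). A match describes these letters and is not evidence of binding.

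The windows below show the ISRE-like letters (in capitals, TTTCNNTTTC where the match is on the opposite strand) in 6 genes that were higher in lymph node than in kidney and in 2 genes of the IFIT family that were not called there. Each runs 5′ to 3′ on the strand of its gene and ends before the start site. They lie at chr4:156200855-156200904 for Isg15 (minus strand), chr8:71537567-71537616 for Bst2 (minus), chr11:58199502-58199551 for Igtp (plus), chr7:104465200-104465249 for Trim30a (minus), chr10:128270256-128270305 for Stat2 (plus), chr5:120907526-120907559 for Oas1a (minus), chr19:34640784-34640833 for Ifit1 (plus) and chr19:34583387-34583436 for Ifit3 (plus).
Isg15: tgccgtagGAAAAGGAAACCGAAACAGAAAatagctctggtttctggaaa
Bst2: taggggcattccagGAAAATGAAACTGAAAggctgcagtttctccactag
Igtp: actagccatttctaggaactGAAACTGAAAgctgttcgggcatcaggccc
Trim30a: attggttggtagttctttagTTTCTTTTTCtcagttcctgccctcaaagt
Stat2: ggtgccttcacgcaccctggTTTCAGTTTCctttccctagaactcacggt
Oas1a: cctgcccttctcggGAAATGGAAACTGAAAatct
Ifit1: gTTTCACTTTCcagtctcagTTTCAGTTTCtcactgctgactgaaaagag
Ifit3: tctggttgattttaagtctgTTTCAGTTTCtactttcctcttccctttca

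Isg15, Bst2, Oas1a and Ifit1 held more than 1 overlapping or neighbouring match. Ifit3 held 2 matches, and its window shows only that nearest the start site. Genes with the motif were found both among those that passed the tests described next and among those that did not. Of the tested genes with a promoter, it was found in 9 of 19 called and 4 of 11 not called in kidney versus lymph node, and in 5 of 10 called and 8 of 20 not called in kidney versus TLS.

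The libraries held between 343825 and 443379 reads each, and 2 kidney libraries stood apart from the others. The share of reads on nuclear and mitochondrial ribosomal RNA was 59.6% in kidney H117, 32.7% in lymph node H6, 24.6% in TLS H115 and at most 7.57% elsewhere. The 49 genes together had 824 reads in kidney H6, 1124 in that of mouse H20, 313 in that of mouse H115 and 125 in that of mouse H117. All other libraries had between 1367 and 2597. At least 1 read was found for 48, 47, 29 and 16 of the genes in the 4 kidneys, in the same order, and for 43 to 49 in the others. Values are the table's normalized read counts, in which 1 had been added to each gene's reads before scaling by library size, so a gene without a read has a value between 0.786 and 1.77 and not 0. Of the reads outside ribosomal RNA, the 49 genes took 0.243%, 0.320%, 0.0905% and 0.0820% in the 4 kidneys and 0.370% to 0.678% in the other libraries.

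The summed normalized read count of the 49 genes was 772, 989, 420 and 309 in kidney (mean 622 ± 314 SD, n = 4), 1996, 1113 and 1568 in TLS (1559 ± 442, n = 3), and 2652, 2507 and 1831 in lymph node of proteinuric mice (2330 ± 438, n = 3). Values are listed throughout in the order of mice H6, H20, H115 and H117, as far as the tissue has them. All 4 kidneys were below all 3 TLS, and TLS and lymph node overlapped. Scaled to reads outside ribosomal RNA, the sums were 1274 to 2042 in TLS and 2093 to 2336 in lymph node and did not overlap. The summed normalized read count was 1517, 2088 and 1756 in antibody-positive lymph nodes (1787 ± 287, n = 3), which overlapped the proteinuric ones. It was 1476 in the young lymph node. With the scaling to reads outside ribosomal RNA, the antibody-positive sums were 1304 to 1961, all below the proteinuric lymph nodes, and the young lymph node had 1537. Per kilobase of exon, the highest mean level over the 14 libraries was that of Ifi27l2a (819), a small protein of the IFI27 family. Bst2 (170.4), Isg15 (72.5), Ly6e (60.1), Ubd (42.6) and Lgals3bp (28.4) followed. Ifih1 and Ifi44 were lowest, at 0.31 and 0.35 per kilobase.

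**Figure D1:**
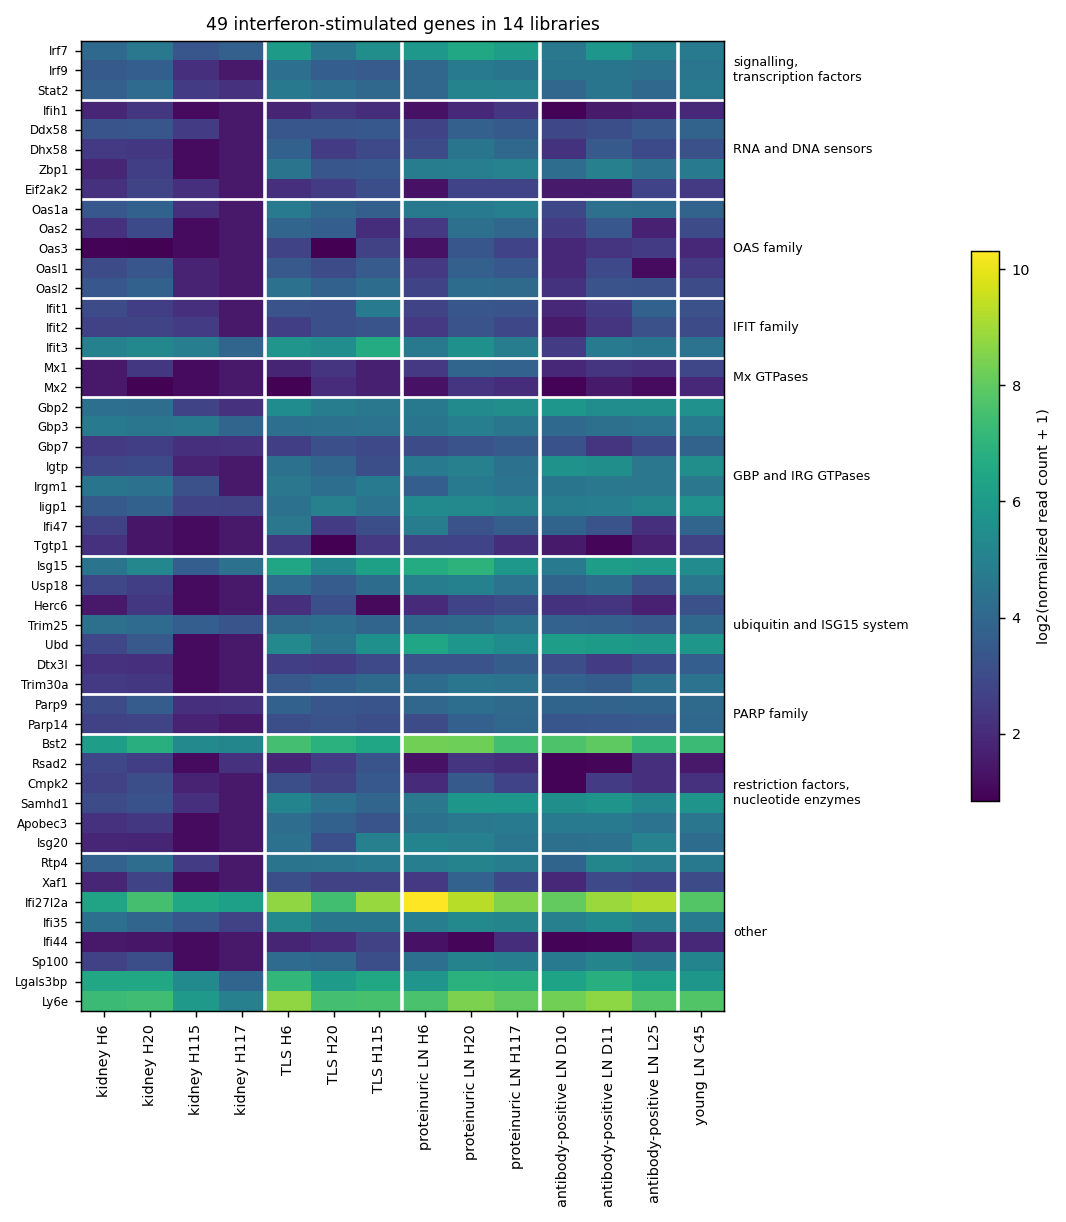
Heat map of log2(normalized read count + 1) for the 49 genes (rows, grouped by role) in the 14 libraries (columns, grouped by tissue and stage with white lines between groups; LN, lymph node). The kidney libraries of mice H115 and H117, with 29 and 16 genes detected, are the darkest columns, and Ifi27l2a, Ly6e and Bst2 are the brightest rows.

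Kidney versus TLS asked which of the genes were expressed differently in the aggregates and in the surrounding kidney of proteinuric mice. With limma on log2(value + 1) and Benjamini-Hochberg adjustment over all 7382 genes whose mean value reached 5, 14 of the 40 interferon-stimulated genes tested were higher in TLS at an adjusted p under 0.05 (called) and none was higher in kidney. Over all genes tested, 8.62% were called higher in TLS and 6.07% higher in kidney. The median log2 fold change of the 40 was 1.36, against -0.01 for all genes tested, and 39 of the 40 were positive. The 9 not tested (Ifih1, Eif2ak2, Oas3, Mx1, Mx2, Tgtp1, Herc6, Rsad2, Ifi44) had too low a mean value, and a fit without this filter tested all 49 and called 12. A gene that is low in kidney could pass the filter through its values in the other tissues, so these counts describe the list and are not support for its direction. Whether cells of a type were more frequent or held more RNA of a gene cannot be told apart in tissue libraries.

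Among the signalling factors, Irf7 (chromosome 7, 141262706 to 141266481), which amplifies type I interferon production, had values of 15.9, 23.6, 9.27 and 12.4 in kidney and 62.7, 22.8 and 44.7 in TLS. TLS H20 lay within the kidney range. The log2 fold change of Irf7 was 1.41 (SE 0.40, adjusted p = 0.0338), and with the mouse as a replicate block it was 1.38 (adjusted p = 0.0643). The other partners of ISGF3 were not called: Irf9 had 10.6, 11.8, 3.48 and 1.77 in kidney and 18.7, 11.8 and 10.9 in TLS (log2 fold change 1.14, SE 0.50, adjusted p = 0.152). Stat2 had 12.4, 16.9, 4.64 and 3.55 in kidney and 24.6, 18.9 and 15.3 in TLS (1.19, SE 0.48, adjusted p = 0.123). For both, the kidneys of mice H6 and H20 were close to the TLS and those of mice H115 and H117 were lower. Without kidney H20, Stat2 passed the threshold (1.53, adjusted p = 0.0422).

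Of the sensors, Zbp1, a receptor of left-handed nucleic acid that can start cell death, was called. Its values were 2.65, 5.06, 1.16 and 1.77 in kidney (7 reads in all) and 21.2, 9.43 and 9.81 in TLS, so every TLS was above every kidney (log2 fold change 2.00, SE 0.39, adjusted p = 0.0045). Ddx58 (RIG-I) and Dhx58, which sense viral RNA, were not called, with differences of 0.74 and 1.22.

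In the ubiquitin and ISG15 system, 4 of 6 genes tested were called. Ubd (FAT10, chromosome 17, 37193892 to 37196095), a ubiquitin-like protein that marks others for the proteasome, had 6.19, 10.1, 1.16 and 1.77 in kidney and 38.2, 21.2 and 48.0 in TLS. The groups did not overlap and the difference of Ubd was the largest of the 40 genes (2.90, SE 0.54, adjusted p = 0.0037). Usp18, the protease that removes ISG15 and dampens the receptor, had 6.19, 5.06, 1.16 and 1.77 in kidney and 16.96, 11.003 and 17.4 in TLS (1.98, SE 0.42, adjusted p = 0.0074). Isg15 itself (chromosome 4, 156199424 to 156200818), a ubiquitin-like modifier, had 21.2, 36.3, 11.6 and 19.5 in kidney and 83.9, 37.7 and 74.1 in TLS. Its lowest TLS value, in mouse H20, was close to the kidney of the same mouse (log2 fold change 1.54, SE 0.44, adjusted p = 0.0316, and 1.44 with adjusted p = 0.0575 under the replicate block). Trim30a, a tripartite motif protein that restrains innate signalling, had 4.42, 4.22, 1.16 and 1.77 in kidney and 10.2, 12.6 and 16.4 in TLS, again without overlap (1.94, SE 0.36, adjusted p = 0.0037). Trim25, the ligase that ubiquitinates RIG-I, had a difference of 0.22 (adjusted p = 0.704).

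Among the restriction factors and nucleotide enzymes, 3 of 5 tested were called. Isg20, a 3′ exonuclease that degrades viral RNA, had 2.65, 2.53, 1.16 and 1.77 in kidney, which is 4 reads in all, and 20.4, 7.86 and 30.5 in TLS. All TLS were above all kidneys and the log2 fold change was 2.61 (SE 0.40, adjusted p = 0.0012), 2.84 with a pseudocount of 0.5 and 1.69 with 5. Samhd1, which hydrolyses the nucleotides needed for reverse transcription, had 7.07, 8.43, 3.48 and 1.77 in kidney and 33.9, 20.4 and 14.2 in TLS (2.02, SE 0.48, adjusted p = 0.0142). Apobec3, a cytidine deaminase that acts on retroviral DNA, had 3.54, 4.22, 1.16 and 1.77 in kidney and 17.8, 12.6 and 8.72 in TLS (1.97, SE 0.36, adjusted p = 0.0033). Neither overlapped. Bst2 (tetherin), which holds budding virus at the cell surface, had 68.1, 109.7, 38.2 and 35.5 in kidney and 177, 116 and 84.0 in TLS. The kidney H20 lay within the TLS range, and Bst2 was not called (1.07, SE 0.46, adjusted p = 0.141).

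Of the remaining genes, Sp100, a component of nuclear bodies, had 5.30, 7.59, 1.16 and 1.77 in kidney and 16.96, 14.9 and 7.63 in TLS, the lowest TLS being next to the highest kidney (1.67, SE 0.48, adjusted p = 0.0333). Ifi27l2a had 81.3, 180.5, 88.1 and 72.8 in kidney and 432, 175.3 and 460.1 in TLS, with kidney and TLS H20 at about the same value (1.72, SE 0.53, adjusted p = 0.0454, and 1.49 with adjusted p = 0.0815 under the replicate block). Ly6e, a membrane protein of the LY6 family, had 155, 170.4, 60.3 and 30.2 in kidney and 426, 179 and 188 in TLS and was not called (1.53, SE 0.59, adjusted p = 0.105). Lgals3bp, a secreted glycoprotein that binds galectin-3, had 90.2, 91.9, 40.6 and 14.2 in kidney and 139, 66.8 and 90.5 in TLS, which overlapped (0.99, SE 0.60, adjusted p = 0.306).

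The GTPases of the GBP and IRG families, which attack the vacuoles of intracellular pathogens, were called for Gbp2 (1.62), Igtp (1.55) and Iigp1 (1.43) of 7 tested. Under the replicate block Gbp2 was lost (1.499, adjusted p = 0.0666) and Ifi47 of the same families was called (1.69, adjusted p = 0.0057). Gbp3 was the gene of the list with a negative difference (-0.10, adjusted p = 0.869), with 26.5, 22.8, 24.3 and 14.2 in kidney and 18.7, 20.4 and 20.7 in TLS. No gene of the OAS family (4 tested), some members of which make the second messenger of RNase L, passed the test. Nor did any of the IFIT family (3 tested), which binds foreign RNA caps. Ifit3 had 30.9, 37.1, 29.0 and 14.2 in kidney and 53.4, 44.0 and 100.3 in TLS without overlap (1.20, adjusted p = 0.0734). Oas3 had no read in the 4 kidneys and 6, 0 and 4 reads in TLS of mice H6, H20 and H115.

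**Figure D2:**
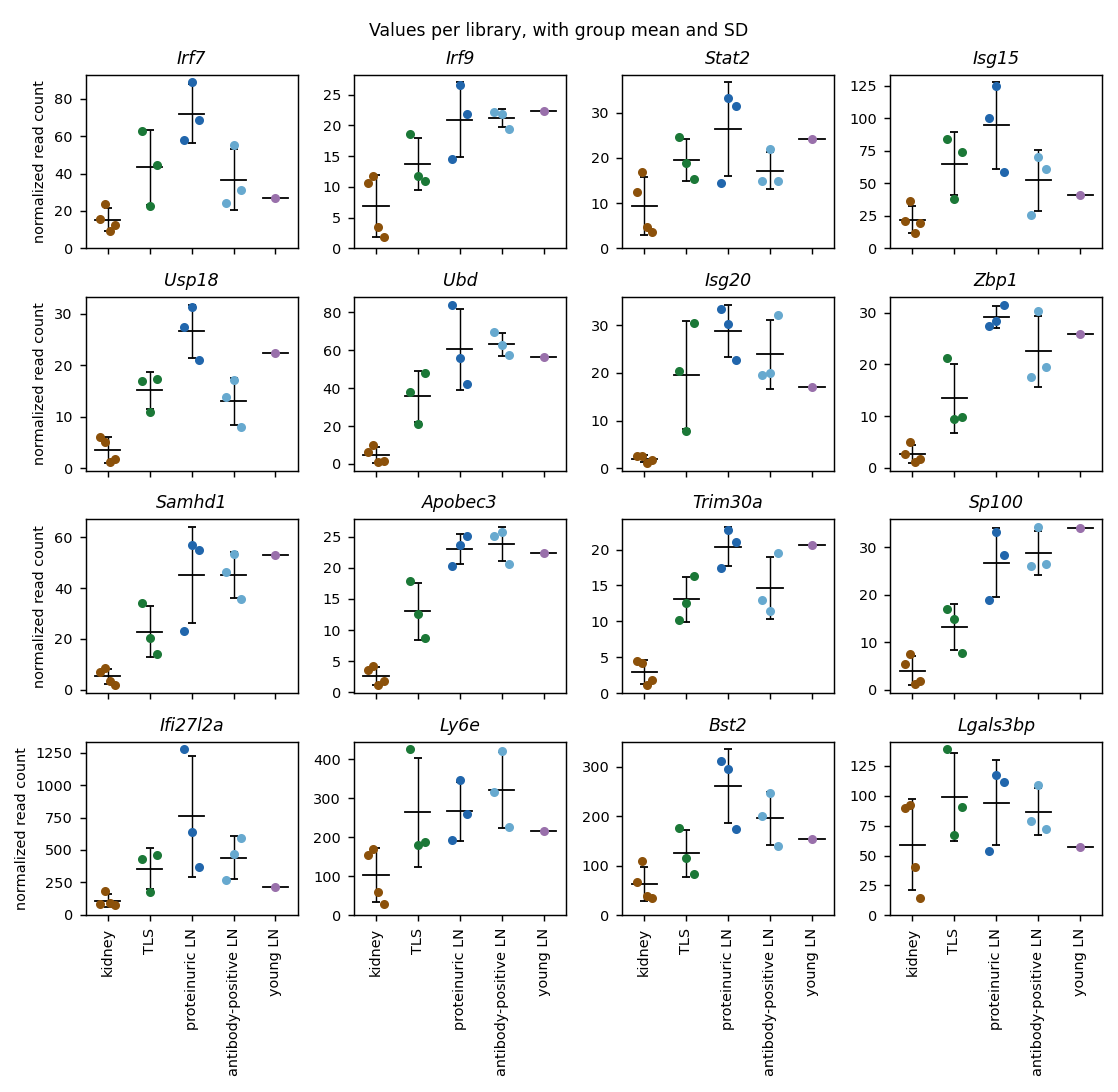
Normalized read count per library (points) with group mean and SD (bars) for single genes in kidney (n = 4), TLS (n = 3), lymph nodes of proteinuric (n = 3) and antibody-positive mice (n = 3) and the young lymph node (n = 1, no SD). Ubd, Isg20, Zbp1, Samhd1 and Apobec3 lie lower in all 4 kidneys than in every TLS and lymph node, and Ifi27l2a reaches 1275 in lymph node H6.

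The size of the difference depended on the mouse. Within mouse H6, 42 of the 49 genes had a higher value in TLS than in kidney, and the ratio of the summed values was 2.59. Within mouse H115 it was 47 genes and a ratio of 3.74, and within mouse H20 it was 32 genes and a ratio of 1.12. The share of all genes above the filter that were higher in TLS was 44.9%, 42.5% and 40.7% in mice H6, H115 and H20. Of the 3 TLS, that of mouse H6 had the highest value for 22 of the genes, that of mouse H115 for 19 and that of mouse H20 for 8.

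The count of 14 rested on few libraries. It was 8 without kidney H115, 8 without kidney H117, 7 without TLS H6 and 9 in a fit of the 2 tissues alone. Without both kidneys of mice H115 and H117, an alternative chosen after seeing the data, 5 genes (Ubd, Isg20, Zbp1, Apobec3 and Trim30a) were called, and the median difference of the 41 genes then tested was 0.58, against -0.10 for all genes. These 5 were called in each of the 20 or 21 alternatives that tested them. Gbp2 was lost in 15 of them, Sp100 and Ifi27l2a in 11, Irf7 in 9, Isg15 in 8, Igtp in 7, Iigp1 and Samhd1 in 2 and Usp18 in 1. Samhd1 lost its call without TLS H6 (1.70, adjusted p = 0.0853) or both kidneys (1.36, adjusted p = 0.13) and Usp18 without both kidneys (1.26, adjusted p = 0.0535). Sp100 lost its call with edgeR (TMM, 2.02, adjusted p = 0.0711) and DESeq2 (2.01, adjusted p = 0.0509), though the difference was larger there, and without kidney H115 (0.0934) or H117 (0.0885), TLS H6 (0.145) or H20 (0.114) or lymph node H117 (0.0511). Isg15 and Irf7 lost theirs without kidney H6 (adjusted p = 0.0559 and 0.0549), H115 (0.098 and 0.103) or H117 (0.0672 and 0.077), and without TLS H6 (0.141 and 0.163) or H115 (0.074 and 0.0725). Ifi27l2a lost its call without the same 5 libraries (adjusted p between 0.0907 and 0.17) and without lymph node H20 (0.0618). Igtp was lost without kidney H115 (0.0829) or H117 (0.0713) or TLS H6 (0.141) or H20 (0.0934), and Iigp1 without TLS H20 (0.0639). Gbp2 was lost without the same 4 libraries (adjusted p between 0.106 and 0.19) and without lymph node H6 (0.0576), H20 (0.065) or H117 (0.0655).

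Markers of B cells, T cells, plasma cells and macrophages moved the same way. The summed value of 9 B-cell markers was 10.4 to 31.9 in kidney, 350 to 520 in TLS and 648 to 984 in lymph node of proteinuric mice, and Ms4a1, Pax5, Blk, Fcer2a and Cr2 had no read in any kidney. For 10 T-cell markers it was 16.2 to 32.9, 200 to 372 and 688 to 778, for 7 plasma-cell markers 53.3 to 151, 693 to 1163 and 1026 to 1848, and for 9 macrophage markers 177 to 703, 977 to 1741 and 2289 to 2658. Higher in TLS than in kidney were 8 of 8 B-cell, 10 of 10 T-cell, 5 of 6 plasma-cell and 4 of 8 macrophage markers tested. Neutrophil markers did not move this way between kidney and TLS. Their summed value (3 markers) was 4.64 to 6.19 in kidney, 4.36 to 15.3 in TLS and 17.8 to 228 in lymph node. None of the 2 tested was called in kidney versus TLS (median log2 fold change -0.12). Plasmacytoid dendritic cells are known as strong producers of type I interferon, and 9 of their 10 listed markers had values. Of these, Siglech, Runx2 and Cox6a2 had no read in kidney or TLS. Spib, which B cells express too, had no read in kidney and 26.3, 12.6 and 20.7 in TLS, where it was called, and Tcf4 was at 1.69 to 2.32 in kidney and 4.24 to 13.1 in TLS. Klk1, which is also a kidney kallikrein gene, led the list and was lower in TLS. The summed value of 9 proximal tubule markers was 6869 to 18862 in kidney, 1089 to 7312 in TLS and 7.28 to 14.5 in lymph node, and that of 8 urothelial markers was 14.2 to 49.8 in kidney and 146 to 757 in TLS. The TLS libraries held tubular and urothelial RNA as well. The part of these cells in the values of the interferon-stimulated genes was not tested.

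**Figure D3:**
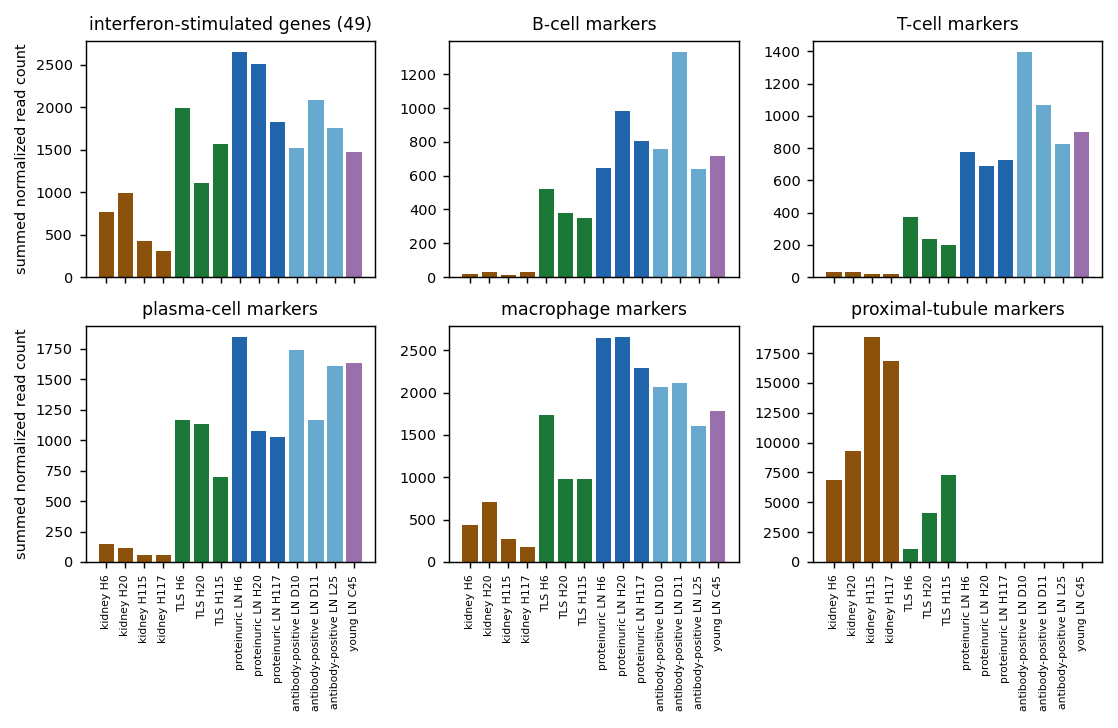
Summed normalized read count per library (bars from 0) of the 49 interferon-stimulated genes and of 5 lists of cell type markers. The interferon-stimulated genes and the B-cell, T-cell, plasma-cell and macrophage markers are lowest in the 4 kidneys, and the proximal tubule markers are high there (6869 to 18862), with TLS H115 (7312) above kidney H6.

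Kidney versus lymph node, both of proteinuric mice, gave the most calls. Higher in lymph node were 29 of the 40 genes tested, and none was higher in kidney. These tissues differed in many genes: 20.8% of all genes tested were called higher in lymph node and 23% higher in kidney. The median log2 fold change was 1.68 for the 40 genes and 0.05 for all genes, and in 26 of the 40 every lymph node was above every kidney, against 23.3% of all genes tested. The fit without the filter called 30 of 49. The comparison shares its 4 kidney libraries with kidney versus TLS, so the 14 genes called in both are not independent results. A further 15 genes were called here alone, and 11 in neither.

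All 3 signalling factors were called. Irf7 had 58.0, 89.0 and 68.8 in lymph node of mice H6, H20 and H117, 2.21 above kidney on the log2 scale (SE 0.40, adjusted p = 0.000717). Irf9 had 14.5, 26.5 and 21.9 (1.70, adjusted p = 0.0147) and Stat2 14.5, 33.2 and 31.6 (1.55, adjusted p = 0.0208). The lymph node H6 was the lowest of the 3 for each, and for Stat2 it lay below kidney H20. The largest differences were again those of Ubd, with 84.0, 55.9 and 42.1 in lymph node (3.66, SE 0.54, adjusted p = 0.000157), and Isg20, with 33.3, 30.3 and 22.7 (3.31, SE 0.40, adjusted p = 3.3e-05). Zbp1 had 27.5, 28.4 and 31.6 in lymph node (3.15, SE 0.39, adjusted p = 3.5e-05), and no lymph node was near a kidney.

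Samhd1 had 23.2, 56.8 and 55.0 in lymph node (2.95, SE 0.48, adjusted p = 0.000317) and Apobec3 20.3, 23.7 and 25.1 (2.79, SE 0.36, adjusted p = 5.2e-05). Usp18 had 27.5, 31.3 and 21.0 (2.76, SE 0.42, adjusted p = 0.00018) and Sp100 18.8, 33.2 and 28.3 (2.67, SE 0.48, adjusted p = 0.000609). Each of these lymph node values was above all 4 kidneys. Ifi27l2a had 1275, 636 and 367 in lymph node, a wide range led by mouse H6 (2.75, SE 0.53, adjusted p = 0.001). Trim30a had 17.4, 22.7 and 21.0 (2.56, adjusted p = 0.000111), Isg15 99.99, 125.0 and 59.1 (2.09, adjusted p = 0.00188) and Bst2 312, 296 and 175 (2.14, adjusted p = 0.00219).

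Ly6e had 194, 346 and 259 in lymph node and passed narrowly (1.62, SE 0.59, adjusted p = 0.0402). Lgals3bp had 53.6, 117.5 and 112 and was not called (0.90, SE 0.60, adjusted p = 0.241). No gene of the IFIT family was called. The differences were 0.84 for Ifit1, 0.50 for Ifit2 and 0.27 for Ifit3, with adjusted p of 0.156, 0.31 and 0.635, and the lymph node values of Ifit3 (24.6, 47.4 and 27.5) lay across those of kidney. Gbp3 (0.16), Trim25 (0.30), Cmpk2 (0.50), Ddx58 (0.69), Oasl1 (0.80), Irgm1 (0.88) and Oasl2 (1.08) were not called either.

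Without kidney of both mice H115 and H117, 18 of 41 genes were called, with a median of 1.00 against 0.00 for all genes. Irf9 then lost its call (0.81, adjusted p = 0.124), as did Stat2 (0.74, adjusted p = 0.209) and Ly6e (0.67, adjusted p = 0.365), while the others of the genes given with values kept theirs. Irf9 was also lost without lymph node H20 (adjusted p = 0.0599). Stat2 was lost without kidney H115 (0.0592) or H117 (0.0553) or lymph node H20 (0.0803) or H117 (0.0796). Ly6e was lost without kidney H115 (0.0945) or H117 (0.102), without lymph node H6 (0.0534), H20 (0.127) or H117 (0.0879), and with edgeR (TMM, 0.071, and DESeq2 size factors, 0.0533). Scaled to reads outside ribosomal RNA, Irf9 (adjusted p = 0.0567), Stat2 (0.0629) and Ly6e (0.0708) lost their calls as well.

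**Figure D4:**
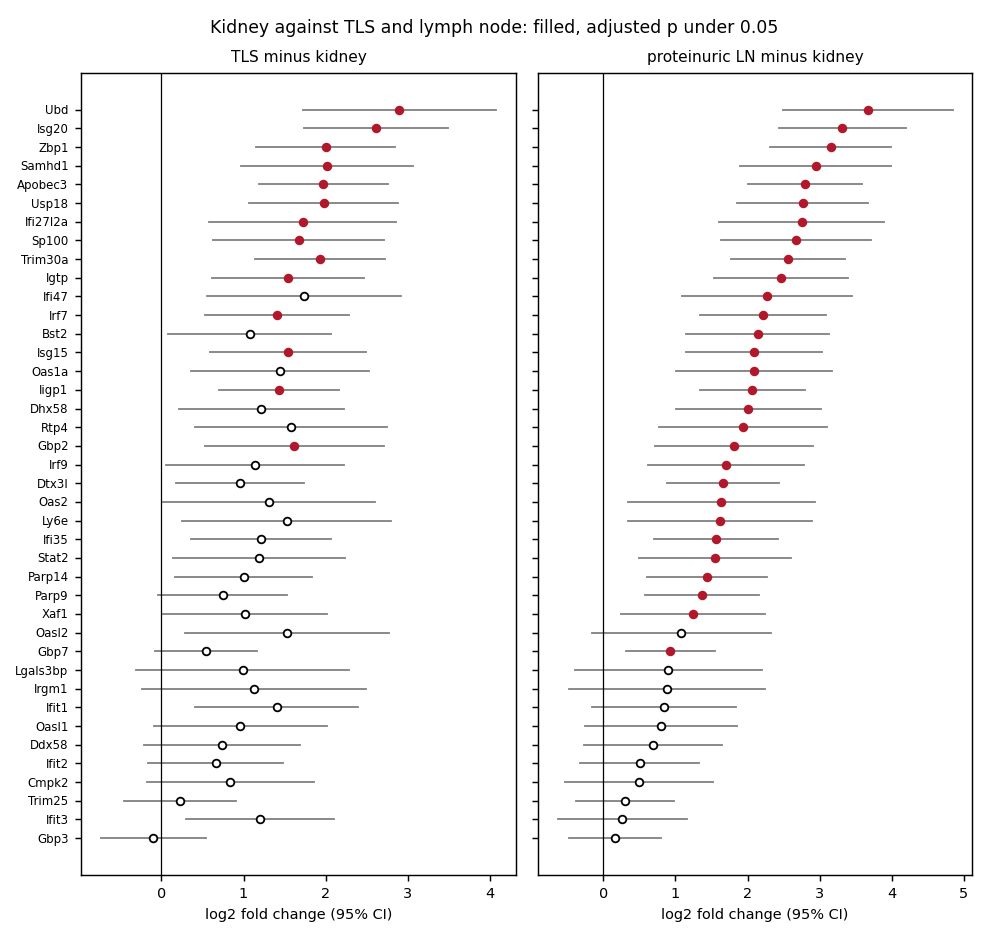
Log2 fold change with 95% confidence interval of the 40 genes tested, TLS minus kidney (left) and proteinuric lymph node minus kidney (right), with genes in the same order. Filled points, 14 on the left and 29 on the right, had an adjusted p under 0.05, and Gbp3, Ifit3 and Trim25 lie lowest on the right.

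Lymph node versus TLS of proteinuric mice found no called gene among the 40, in either direction. Over all genes tested, 8.87% were called higher in TLS and 1.69% higher in lymph node. The edgeR quasi-likelihood test and DESeq2 on the recovered reads also called none of the 40, and at an unadjusted p under 0.05 in limma there were 2, Zbp1 and Bst2, both higher in lymph node, where 22.6% of all genes tested were under that value. The median difference, TLS minus lymph node, was -0.49 for the 40 genes and -0.04 for all genes, and 9 of the 40 were positive. In 11 genes (Zbp1, Sp100, Igtp, Apobec3, Usp18, Dtx3l, Iigp1, Trim30a, Parp9, Rtp4 and Gbp3) every lymph node was above every TLS, as in 9.48% of all genes tested.

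Zbp1, at 13.5 ± 6.69 in TLS and 29.2 ± 2.12 in lymph node (SD, n = 3 each), had the largest difference (-1.15, 95% confidence interval -2.05 to -0.25, adjusted p = 0.108). Without TLS H6 it was -1.50 and was then called (adjusted p = 0.0371), the only call of a listed gene among the fits run for this comparison. The difference was -1.07 for Bst2 (interval -2.13 to -0.0027), -1.03 for Ifi27l2a (-2.25 to 0.19), -0.93 for Samhd1 (-2.05 to 0.19) and -0.81 for Irf7 (-1.74 to 0.13). The 3 genes of the IFIT family were on the other side: Ifit3 was at 65.9 ± 30.2 in TLS and 33.2 ± 12.4 in lymph node (0.94, interval -0.03 to 1.90, adjusted p = 0.234), and Ifit1 (0.56) and Ifit2 (0.15) were positive as well. Ifit3 was highest in TLS H115 (100.3), and TLS H20 (44.0) lay below lymph node of the same mouse (47.4).

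**Figure D5:**
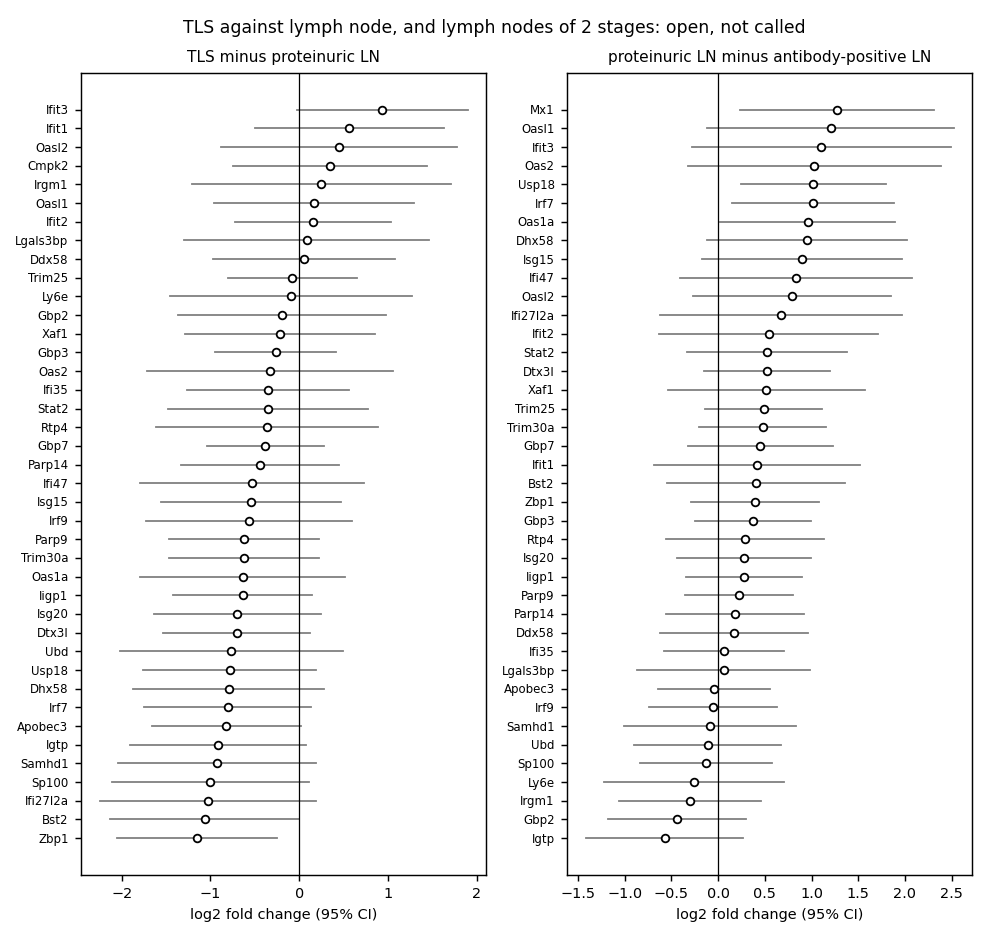
Log2 fold change with 95% confidence interval of the 40 genes tested, TLS minus proteinuric lymph node (left) and proteinuric minus antibody-positive lymph node (right), each sorted by its own values. All points are open, as no gene had an adjusted p under 0.05, and Ifit3 (0.94) leads the left panel and Mx1 (1.27) the right.

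Antibody-positive versus proteinuric lymph node asked whether the genes differed between the stage with autoantibodies and the stage with overt nephritis. None of the 40 tested was called (limma, smallest adjusted p 0.998), and of all 6810 genes tested 0% were called higher in proteinuric and 0% higher in antibody-positive lymph nodes. The edgeR quasi-likelihood test called no gene at all, and DESeq2 called 13 genes, none of them in the list. The list held 4 genes at an unadjusted p under 0.05 (Usp18, Mx1, Irf7 and Oas1a), against 3.16% of all genes tested, and the median difference, proteinuric minus antibody-positive, was 0.41 against -0.08 for all genes.

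Usp18 had 13.9, 17.1 and 8.03 in lymph nodes of mice D10, D11 and L25, all below the 3 proteinuric values (difference 1.02, 95% confidence interval 0.24 to 1.80). Irf7 had 24.1, 55.2 and 31.0, also without overlap (1.01, interval 0.15 to 1.88). Mx1, an antiviral GTPase, was at 3.34 ± 0.52 in antibody-positive and 10.5 ± 5.37 in proteinuric lymph nodes (1.27, interval 0.23 to 2.31), and Oas1a at 14.6 ± 7.05 and 26.8 ± 2.26 (0.96, interval 0.02 to 1.89). Parp9, Gbp3, Trim25 and Dtx3l did not overlap either and were higher in the proteinuric group, which makes 8 of the 40 genes, against 2.5% of all genes tested. On the other side lay Igtp (-0.57), Gbp2 (-0.44), Irgm1 (-0.30) and Ly6e (-0.26). Isg15 had 26.0, 70.4 and 60.8 and Ifi27l2a 264, 469 and 589.7 in the antibody-positive lymph nodes, both overlapping the proteinuric ones. The lymph node of mouse D10 had the lowest of the 6 values for 21 of the 49 genes. It was lowest for 16 of the 40 genes above the filter (40%), and for 7.77% of all genes above it. T-cell markers summed to 828 to 1396 in antibody-positive and 688 to 778 in proteinuric lymph nodes, and macrophage markers to 1610 to 2109 and 2289 to 2658. Their part in these values was not tested.

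The young lymph node is 1 library and gives no replicate check. Its value lay inside the range of the 6 older lymph nodes for 41 of the 49 genes, and for 33 of the 40 above the filter, where 79.1% of all genes did so. Ddx58, Gbp7, Iigp1, Herc6 and Dtx3l were above that range and Isg20, Ifi27l2a and Ifi35 below it. Irf7 was at 26.8, Isg15 at 41.2, Usp18 at 22.4, Ubd at 56.4 and Ifi27l2a at 217.

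The other genes of the pathway were counted from lists chosen for this purpose. Of 5 interferon receptor genes tested, none was called in kidney versus TLS or in lymph node versus TLS, and Ifngr1 (1.36) and Ifnar2 (1.06) were higher in lymph node than in kidney. None of 21 listed interferon ligand genes was found by symbol among the 13982 genes with values, so ligands were not analysed here. The kinase Tyk2 (1.41) was higher in lymph node than in kidney.

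Of 5 further interferon regulatory factors, Irf1 and Irf8 were higher in TLS than in kidney, and all 5 were higher in lymph node than in kidney. The difference of TLS and kidney was 1.82 (adjusted p = 0.0213) for Irf1, which responds to type II interferon. Irf8, a factor of dendritic and B cells (adjusted p = 0.0089), had no read in the 4 kidneys, 14.4, 4.72 and 4.36 in TLS and 17.4, 32.2 and 17.8 in lymph node, where it was higher than in TLS (-1.53 for TLS minus lymph node, adjusted p = 0.0418). Of 5 negative regulators, Ptprc (CD45, 2.68) and Ptpn6 (SHP-1, 2.13), phosphatases of leukocytes, were higher in TLS than in kidney. Both were also higher in lymph node than in kidney (3.90 and 3.40), together with Socs3 (1.85).

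Among 69 further interferon-stimulated genes in the table, 51 passed the filter. Higher in TLS than in kidney were 24 of them and 39 were higher in lymph node than in kidney, and none was higher in kidney. Of all genes tested, 8.62% were called higher in TLS than in kidney and 20.8% higher in lymph node than in kidney. Apart from Cxcl9, whose fold has no base in kidney, the largest differences in TLS versus kidney were those of Ly6c2 (3.66), a marker of inflammatory monocytes and plasma cells, Sp140 (3.09), a paralog of Sp100, Ms4a4c (2.81) and Slfn2 (2.42). No kidney had more than 3 reads of Ly6c2, Sp140 or Ms4a4c, so the size of these folds depends on the pseudocount. Cxcl9, a chemokine induced mainly by type II interferon, was called higher in TLS and had no read in the 4 kidneys, 24.6, 14.9 and 20.7 in TLS and 24.6, 34.1 and 26.7 in lymph node. In lymph node versus TLS, 6 of the 51 were called, all higher in lymph node, as were 1.69% of all genes tested. The 6 included Slfn1 (-2.27, TLS minus lymph node), Gbp2b (-1.71), Epsti1 (-1.54), Ms4a6b (-1.35) and Ms4a4b (-1.27). In lymph node versus kidney the largest were Ly6c2 (4.13), Epsti1 (3.94), Ms4a4c (3.91) and Sp140 (3.86). None of 55 tested was called between the lymph nodes of the 2 stages.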

How the data were processed

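Libraries of poly(A)-selected RNA (14 in all) had been sequenced on an Ion Torrent PGM. The 15 whole kidney samples of the series were not analysed here. Per the paper, trimming, mapping to GRCm38 and counting were done in CLC Genomics Workbench 8 at default settings, and the authors deposited a normalized signal for each gene. Multiplied by the library's DESeq size factor, 100% of the deposited values became whole (within 0.001) and at least 1, that is, 1 was added to each count before scaling, and reads were recovered by undoing both steps. Trimming, mapping and counting were used as the authors did them.

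Libraries were grouped by tissue and stage from the labels, and the members and gene lists were chosen with earlier results of these data known. Differential expression was tested with limma 3.58.1 (R 4.3.3, trend and robust moderation) on log2(value + 1) for genes whose mean value reached 5, in a fit of the 10 libraries of proteinuric mice and in a fit of the 6 lymph nodes of antibody-positive and proteinuric mice. A gene was called at a Benjamini-Hochberg adjusted p under 0.05 over all genes tested. Fold changes on this scale understate the change of genes with few reads. Adjusted p-values, where no other tool is named, are from limma. The p-values measure the spread between these libraries.

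Count tests on the recovered reads were alternatives: edgeR 4.0.16 (quasi-likelihood, TMM) called 830, 785, 3186 and 0 genes and DESeq2 1.42.0 called 978, 832, 2940 and 13 in kidney versus TLS, lymph node versus TLS, kidney versus lymph node and antibody-positive versus proteinuric lymph node. Other alternatives changed the scaling, pseudocount, filter, fold threshold, replicate block and libraries. Values in every library are given for, in each comparison, the 8 called genes with the largest change whose libraries did not overlap, the 6 genes with the highest mean, and Irf7, Irf9, Stat2, Isg15 and Usp18. Further genes were named after their values were seen. Of the further interferon-stimulated genes, the 5 called with the largest change were named. A pathway gene that the lists hold is not reported here.

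Kidney, TLS and lymph node libraries with the same number came from the same mouse. Across genes, the departures of libraries from their tissue's mean correlated with a median of 0.114 (range -0.335 to 0.454) in the 8 pairs from the same mouse, of which the 3 pairs of kidney and TLS had 0.351, 0.364 and 0.454, and of 0.0353 (range -0.498 to 0.512) in the other 25. Positions are from GENCODE (GRCm38), levels per kilobase use the union of annotated exons, and promoters are from RefSeq (GRCm38.p6). Scripts were tested on simulated data.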

Additional observations from a re-analysis of the deposited data

Results flagged for a closer look

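In the kidneys of proteinuric mice, the normalized read count of Ifi27l2a was 180.5 in the library of mouse H20, against 81.3, 88.1 and 72.8 in those of mice H6, H115 and H117. The gap to the nearest other library was 0.858 of the whole range, above the 95% critical value of Dixon's test for 4 samples. It was the only such value among 27 tested, and chance gives about 1 in 20.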

How the results depend on the processing

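With 3 or 4 libraries a group and few reads per gene in kidney, depth limits what can be seen of low genes. In kidney versus TLS, 7 genes were called with a mean value of at least 20 (13 tested), 9 in a fit of the 2 tissues alone and 5 without kidney of mice H115 and H117 (chosen after seeing the data). The other settings gave 11 to 14, and the replicate block gave 11, of which 10 were among the 14. Leaving out 1 library gave 7 to 18. In kidney versus lymph node, 10 were called with a mean of at least 20 (13 tested) and 18 without kidney of mice H115 and H117. Leaving out 1 library gave 23 to 30, and the replicate block gave 27. Lymph node versus TLS gave 0 in all fits (replicate block included) except for 1 without TLS H6, so leaving out 1 library gave 0 to 1, and antibody-positive versus proteinuric lymph node gave 0 in all. No paired analysis was possible because the mice differ in the latter comparison. Apart from Irf7, Isg15, Ifi27l2a and Gbp2, the replicate block changed the call of no gene given with values in every library.

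Small differences changed sign. In lymph node versus TLS, Ly6e was 0.17 with edgeR (TMM) and 0.0029 when scaled to reads outside ribosomal RNA (-0.50 to 0.12 leaving out 1 library), and Lgals3bp was -0.13 with the replicate block (-0.28 to 0.33). In kidney versus lymph node, Lgals3bp was -0.0325 without kidney of mice H115 and H117. In antibody-positive versus proteinuric lymph node, Ubd was 0.0652 with edgeR (TMM), 0.0683 with edgeR (DESeq2 size factors), 0.05996 with DESeq2 and 0.041 with scaling outside ribosomal RNA (-0.37 to 0.12), and Irf9 was 0.0818, 0.0614, 0.0639 and 0.0848 in the same order (-0.24 to 0.18). Lgals3bp ranged from -0.14 to 0.42 there. TMM moved the median difference of all genes to 0.11 in kidney versus TLS and 0.14 in lymph node versus TLS, and raised the genes called higher in TLS to 661 of 830 and 747 of 785, against 636 of 1084 and 655 of 780. The causes were not tested.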
